A study of Mus musculus with 6 samples.

Results

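The 9 genes described here encode antioxidant proteins and metallothioneins: Mt1, Mt2, Nqo1, Gclm, Srxn1, Txnrd1, Slc7a11, Prdx1 and Sod2. They were taken by symbol from the 32285 genes of a single-cell RNA sequencing series of mouse heart, and each matched 1 row. Their unique molecular identifiers (UMIs, counts of distinct captured transcripts) were summed in each of 6 libraries and each marker-defined cell class. The level of a gene is given per 1000000 UMIs of its class in that library (CPM), with a 95% exact Poisson interval that covers counting error only.

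Ventricles of male mice, 8 to 12 weeks old, were digested with thermolysin and papain, cardiomyocytes were strained off, and live cells sorted by Calcein-AM and DAPI were loaded for 10x 3' sequencing. Wild-type mice were C57BL/6JRj, and knockout mice carried the constitutional allele named in their strain label, B6.Cg-Trpm4tm1.2-PG; Trpm4 encodes a calcium-activated cation channel. Both genotypes were sampled 24 h after a sham operation, 24 h and 72 h after the left anterior descending artery of the heart was tied off, a model of myocardial infarction here called ligation. Each of the 6 groups was 1 library of cells pooled from 4 mice, which leaves no spread between animals and no replicate check of any difference. No test was made; a difference of at least 2-fold between 2 libraries is reported as a size, and in such sums fewer responding cells and less RNA per cell cannot be told apart. Sham hearts were sampled at 24 h only, so the 72 h libraries have no sham of their own time.

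NRF2 (Nfe2l2) is a transcription factor held at low levels by KEAP1; when reactive electrophiles or oxidants modify KEAP1, NRF2 builds up, pairs with small MAF proteins and binds antioxidant response elements. Its targets supply glutathione and thioredoxin: Slc7a11 is the cystine carrier of system xc-, Gclm the modifier subunit of the enzyme that limits glutathione synthesis, Txnrd1 the cytosolic thioredoxin reductase, Srxn1 the sulfiredoxin that repairs over-oxidised peroxiredoxins, Prdx1 a peroxiredoxin that reduces hydrogen peroxide, and Nqo1 a quinone reductase. Mt1 and Mt2 are small cysteine-rich proteins that bind zinc and copper; metals induce them through MTF1 and metal response elements, and glucocorticoids and inflammatory cytokines induce them too. Sod2 is the mitochondrial superoxide dismutase, a known target of NF-kB, so the genes share a role more than a single regulator.

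Mt2 and Mt1 lie side by side on chromosome 8 (GRCm38, GENCODE M21), Mt2 at chr8:94172664-94173568 and Mt1 at chr8:94179082-94180327, both on the plus strand with 5513 bases between them. Nqo1 lies on the same chromosome at chr8:107388225-107403206. The others are spread over the genome: Slc7a11 at chr3:49892526-50443614, Gclm at chr3:122245557-122270732, Srxn1 at chr2:152105516-152111376, Txnrd1 at chr10:82833951-82897712, Prdx1 at chr4:116685544-116700822 and Sod2 at chr17:13006846-13040063. All 9 are annotated as protein coding.

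Start-site windows are shown for the metallothionein pair, which had the highest levels of the 9 genes in fibroblasts 24 h after ligation, and for Srxn1 and Prdx1, which differed from each other in fibroblasts. Each window runs from 250 bases before to 30 bases after the start annotated by RefSeq on GRCm38.p6, read 5′ to 3′ on the gene's strand, which is plus for these 4 genes. They lie at chr8:94178839-94179118 (Mt1), chr8:94172368-94172647 (Mt2), chr2:152105274-152105553 (Srxn1) and chr4:116685349-116685628 (Prdx1). Capitals mark matches on either strand to a metal response element core (TGCACNC or TGCGCNC), an antioxidant response element core (TGACNNNGC) or an AP-1 site (TGACTCA).
Mt1: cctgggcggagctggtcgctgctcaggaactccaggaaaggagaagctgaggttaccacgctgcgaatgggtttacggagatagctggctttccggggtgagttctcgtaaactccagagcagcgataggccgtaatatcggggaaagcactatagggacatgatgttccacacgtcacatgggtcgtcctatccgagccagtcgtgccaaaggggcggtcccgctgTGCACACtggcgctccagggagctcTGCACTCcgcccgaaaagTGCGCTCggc
Mt2: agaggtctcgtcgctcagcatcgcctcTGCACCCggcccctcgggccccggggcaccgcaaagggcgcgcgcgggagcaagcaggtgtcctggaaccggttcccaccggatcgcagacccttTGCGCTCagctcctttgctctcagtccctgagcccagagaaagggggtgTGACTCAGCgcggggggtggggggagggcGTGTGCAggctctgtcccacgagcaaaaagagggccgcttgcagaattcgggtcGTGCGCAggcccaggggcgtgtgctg
Srxn1: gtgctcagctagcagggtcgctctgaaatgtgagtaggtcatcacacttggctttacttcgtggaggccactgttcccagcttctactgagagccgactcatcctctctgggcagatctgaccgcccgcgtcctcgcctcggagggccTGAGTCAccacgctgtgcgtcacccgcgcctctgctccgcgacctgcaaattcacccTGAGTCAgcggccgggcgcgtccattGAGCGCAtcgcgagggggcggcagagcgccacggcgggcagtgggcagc
Prdx1: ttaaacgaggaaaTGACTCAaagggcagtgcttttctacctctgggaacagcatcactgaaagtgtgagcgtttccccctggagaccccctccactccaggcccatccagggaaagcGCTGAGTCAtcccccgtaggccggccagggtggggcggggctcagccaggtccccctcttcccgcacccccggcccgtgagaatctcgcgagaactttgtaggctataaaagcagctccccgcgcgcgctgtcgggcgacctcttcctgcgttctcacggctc
The Mt1 window held 3 metal response element matches, 1 at 23 to 17 bases before the RefSeq start and the others just past it. Positions are relative to the RefSeq start only. The Mt2 window ends at 94172647, before the GENCODE start of Mt2 at 94172664, so the annotations differ there. The Mt2 window held 4, together with a TGACTCAGC that matches both the antioxidant and the AP-1 letters. Srxn1 had 1 metal response element match and 2 AP-1 matches, and Prdx1 had 2 AP-1 matches, 1 of them inside its antioxidant response element match. Of 32851 RefSeq windows of this length, 24.1% held at least 1 metal response element match and 1.73% held 3 or more, 11.5% held an antioxidant response element match and 4.94% an AP-1 match. Over the 9 genes, which have 11 windows, 4 genes had an antioxidant response element match (Mt2, Gclm, Txnrd1 and Prdx1), 4 a metal response element match and 3 an AP-1 match. A match describes the letters and is not a bound site.

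The files held 34940 cells, and 32085 were kept. The knockout library at 72 h stood apart in depth: its fibroblasts had a median of 1087.5 UMIs against 10008 in the wild-type library at 72 h, its monocytes and macrophages 1412.5 against 11962 and its endothelial cells 1123 against 2609, while its neutrophils were close at 1978 against 2140. Any 2 libraries shared between 3 and 14 cell barcodes. The 4 classes with over 100 cells in all libraries were endothelial cells, fibroblasts, monocytes and macrophages, and neutrophils; all 12 of the endothelial, fibroblast and neutrophil markers and all 21 of the monocyte and macrophage markers had UMIs in their own class in every library. A class with cardiomyocyte markers held 405 cells despite the straining step. Trpm4 was low throughout, at 8.79, 5.52 and 4.29 CPM over all cells of the wild-type sham, 24 h and 72 h ligation libraries and 6.20, 3.46 and 2.57 CPM in the matching knockout libraries; the deleted segment is not named in the labels, so 3' counts do not check the genotype.

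The 9 genes were distributed differently over the cell classes. Mt1 had its highest library medians in the cardiomyocyte class (3316 CPM), in mesothelial cells (3029) and in fibroblasts (1301), followed by monocytes and macrophages (1092) and pericytes (794). Mt2 was highest in mesothelial cells (858 CPM) and fibroblasts (501) and was near absent from neutrophils (4.99). Sod2 was highest in the cardiomyocyte class, at 1052 CPM, with a range of 659 to 1247 over the 6 libraries that did not overlap that of any other class.

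**Figure D1:**
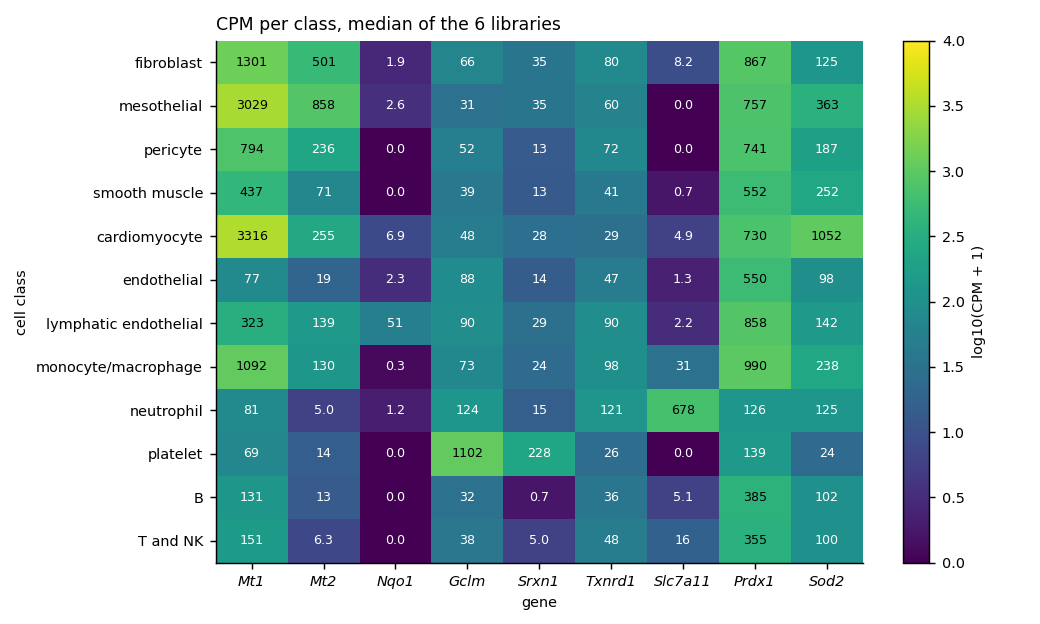
Level of each of the 9 genes (columns) in 12 cell classes (rows), as the median CPM of the 6 libraries; colour gives log10(CPM + 1). Slc7a11 stands out in neutrophils (678 CPM), Gclm and Srxn1 in platelets (1102 and 228 CPM) and Nqo1 in lymphatic endothelial cells (51.4 CPM).

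Slc7a11, Gclm, Srxn1 and Nqo1 each had a class that held far more than the rest. Slc7a11 had a median of 678 CPM in neutrophils, with a range of 373 to 847, against 30.5 (15.4 to 105) in monocytes and macrophages, 8.17 (0.222 to 54.7) in fibroblasts and 1.34 in endothelial cells. Gclm was highest in platelets, at 1102 CPM with a range of 778 to 1291, and the highest library of any other class was at 180. Srxn1 was also highest in platelets, with a range of 144 to 390 CPM against at most 92.0 elsewhere. The platelet class was small, at 428 cells over the 6 libraries and 12532 to 134937 UMIs a library. Its Srxn1 values thus rest on few UMIs, with wide counting intervals.

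Nqo1 was low outside lymphatic endothelial cells. In lymphatic endothelial cells it stood at 28.8 CPM in the wild-type sham library, 47.0 in the knockout sham, 61.8 and 55.8 at 24 h after ligation, and 79.3 and 27.7 at 72 h, each from 7 to 16 UMIs. The counting intervals of these 6 values overlap, and the class held only 16 to 149 cells a library. In the 4 main classes Nqo1 was between 0 and 5.65 CPM and too low to compare, with 1 exception at sham in endothelial cells, where the knockout to wild-type log2 ratio was 0.54 (95% interval -0.31 to 1.44). An endothelial cluster led by Cytl1, Npr3 and Vwf held 8.10 and 19.5 CPM of Nqo1 in the sham libraries, from 6 and 14 UMIs. Among the smaller classes, the cardiomyocyte class had a median of 6.9 CPM and a highest library of 26.0, near the lowest lymphatic library. The highest library was at 18.6 CPM in platelets and 9.10 in smooth muscle, where the medians were 0.

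Within the 4 main classes, ligation was followed at 24 h by higher levels of several of these genes. A gene was compared in a class where the 2 libraries held at least 50 of its UMIs together. At 24 h after ligation against sham, 10 of 30 such gene and class pairs were at least 2-fold higher and 2 at least 2-fold lower in wild type, where 3.4% of all measured gene and class pairs were that much higher and 4.26% lower. In knockout hearts 11 of 31 pairs were at least 2-fold higher and 1 lower, against 2.63% and 5.83% of all pairs. Fibroblasts held 7 of the higher pairs in each genotype. Where a gene was scarce in 1 of the 2 libraries, it could reach the minimum only through the other, so these counts describe the pairs compared and not the 9 genes in every class.

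In fibroblasts, 7 of the 8 genes that could be compared were at least 2-fold higher at 24 h after ligation in both genotypes, all but Prdx1; Nqo1 was too low. Of all measured genes in fibroblasts, 4.96% were at least 2-fold higher in wild type and 4.18% in knockout. The median log2 ratio over the 8 genes was 1.70 in wild type and 1.40 in knockout, against -0.06 and -0.21 over all genes. Slc7a11 reached the 50-UMI minimum mainly through the ligation libraries, so its place in this count was partly set by that minimum.

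Mt1 stood at 1301 CPM in fibroblasts of both sham libraries, 5038 and 4891 in the wild-type and knockout libraries at 24 h after ligation, and 1194 and 988 at 72 h. Both 24 h ligation libraries were well above the other 4, and the 24 h log2 ratio was 1.95 (1.91 to 2.0) in wild type and 1.91 (1.87 to 1.96) in knockout. Mt2 followed the same course: 427 and 575 CPM at sham, 2462 and 2299 at 24 h, and 402 and 282 at 72 h. Its 24 h log2 ratio was 2.53 (2.45 to 2.60) in wild type and 2.0 (1.93 to 2.07) in knockout, the second from a higher sham level. At 24 h, 75.0% of wild-type and 80.3% of knockout fibroblasts had a UMI of Mt2, against 52.5% and 53.5% at sham; after thinning each cell to 1000 UMIs these shares were 41.1% and 54.8% against 14.6% and 19.8%.

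**Figure D2:**
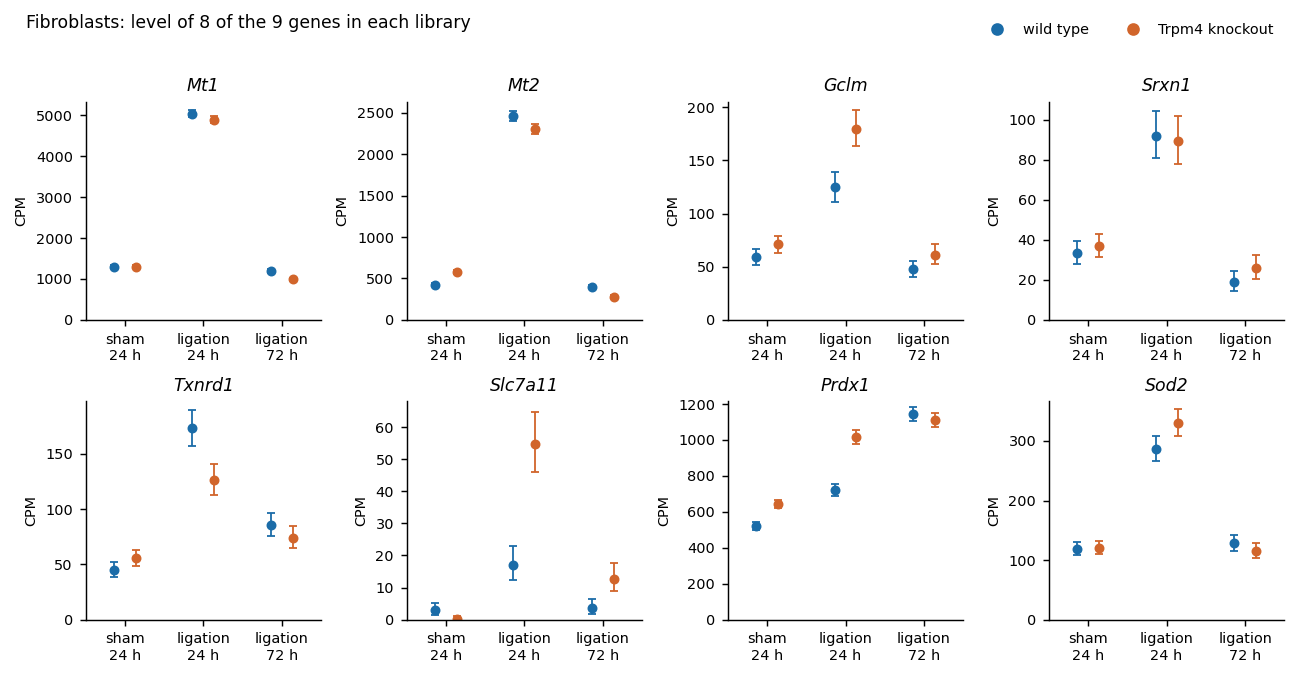
Level in fibroblasts, in CPM, of the 8 genes other than Nqo1 in each of the 6 libraries (blue, wild type; orange, Trpm4 knockout); bars are 95% Poisson intervals, which cover counting error only. For 7 genes the 24 h ligation library of each genotype lies at least 2-fold above the sham library of that genotype, and Prdx1 alone of the 8 stays high at 72 h.

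The thiol and glutathione genes were also higher in fibroblasts at 24 h after ligation, from much lower levels. Srxn1 was at 33.2 and 36.9 CPM in the wild-type and knockout sham libraries, 92.0 and 89.2 at 24 h after ligation, and 19.1 and 25.9 at 72 h. Txnrd1 was at 45.2 and 55.6 CPM at sham, 173 and 126 at 24 h, and 85.6 and 74.0 at 72 h. Gclm was at 58.9 and 71.0 CPM at sham, 125 and 180 at 24 h, and 47.5 and 61.5 at 72 h. For each of these 3 genes the 24 h ligation libraries were the 2 highest of the 6. At sham and at 24 h the genotypes differed least for Srxn1, in fold terms, but at 72 h they differed less for Txnrd1 and Gclm. The 24 h log2 ratios were 1.47 (1.16 to 1.79) and 1.27 (0.97 to 1.57) for Srxn1, 1.94 (1.69 to 2.19) and 1.18 (0.94 to 1.43) for Txnrd1, and 1.08 (0.83 to 1.33) and 1.34 (1.13 to 1.55) for Gclm, wild type first.

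Sod2, which handles superoxide in mitochondria, was at 119 and 121 CPM in fibroblasts at sham, 287 and 330 at 24 h, and 128 and 116 at 72 h. Its log2 ratio at 24 h was 1.27 (1.10 to 1.44) in wild type and 1.45 (1.29 to 1.61) in knockout. Slc7a11 rested on few UMIs: 12 and 1 at sham, 44 and 135 at 24 h, and 11 and 38 at 72 h, or 3.00, 0.222, 17.1, 54.7, 3.55 and 12.8 CPM. Its log2 ratio at 24 h was 2.51 (1.57 to 3.57) in wild type and 7.94 (5.44 to 13.26) in knockout, the latter against a single UMI. Neutrophils are rich in this gene, and the 12 neutrophil markers summed to 311, 232, 793, 1382, 175 and 2518 CPM in the same fibroblast sums, against 67101 to 176070 in neutrophils; the part of neutrophil RNA in the Slc7a11 values was not tested.

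Prdx1 had a course of its own. It was at 523 and 643 CPM in fibroblasts at sham, 719 and 1015 at 24 h, and 1143 and 1109 at 72 h. The 24 h log2 ratios were 0.46 (0.37 to 0.55) in wild type and 0.66 (0.58 to 0.74) in knockout, under 2-fold, and from 24 h to 72 h the ratios were 0.67 (0.59 to 0.75) and 0.13 (0.05 to 0.20). The 72 h libraries were thus the 2 highest of the 6, where 7 other genes were back near or below their sham levels or between these and the 24 h peak.

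Much of the fibroblast difference lay in a cluster of 183 cells led by Cxcl5, Ptx3 and Cxcl1. The 9 genes were left out of the genes that defined the clusters, and Mt2 was nonetheless among the 10 genes that led this one. At 24 h after ligation this cluster made up 28.5% of wild-type and 38.8% of knockout fibroblasts and 42.8% and 57.8% of their UMIs. At sham it made up 4.00% and 6.28% of the cells but 14.05% and 13.58% of the UMIs. After ligation at 24 h it held 69.8% and 71.0% of the fibroblast UMIs of Mt1 and 85.2% and 86.8% of those of Srxn1. For Txnrd1 it held 79.1% and 73.3%, and for Slc7a11 88.6% and 91.9%. For Gclm it held 65.1% and 76.4%, and for Sod2 70.9% and 78.2%. Of the sham UMIs it held 31.99% and 31.63% for Mt1, 31.58% and 28.92% for Srxn1 and 34.25% and 32.8% for Txnrd1. For Gclm the sham shares were 11.9% and 19.7%, and for Sod2 32.2% and 38.5%. Of the 12 and 1 Slc7a11 UMIs at sham, the cluster held 2 and 0. Within it, Mt1 was at 2963 and 3031 CPM at sham (15 and 29 cells) and 8205 and 6006 CPM at 24 h (57 and 73 cells), and Txnrd1 was at 110 and 134 CPM and then 320 and 160 CPM.

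A second fibroblast cluster, led by Clec3b, Serpina3n and Dpep1, had the metallothionein difference but not the one in Srxn1. There Mt1 was at 1170 and 1268 CPM at sham and 3019 and 3496 at 24 h, with log2 ratios of 1.37 (1.30 to 1.44) and 1.46 (1.39 to 1.53), wild type first. Mt2 was at 358 and 473 CPM at sham and 1237 and 1422 at 24 h, with log2 ratios of 1.79 (1.67 to 1.91) and 1.59 (1.48 to 1.70). Srxn1 was at 26.5 and 30.4 CPM and then 23.4 and 27.1, with log2 ratios of -0.18 (-0.85 to 0.46) and -0.17 (-0.89 to 0.50). An alternative chosen after seeing the data left the Cxcl5 and Ptx3 cluster out of the fibroblasts. The Srxn1 ratio then turned to -0.15 in wild type and -0.12 in knockout, and the higher pairs over the 4 classes went from 10 to 5 and from 11 to 6. The share of all pairs that was higher under this alternative is not given.

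**Figure D3:**
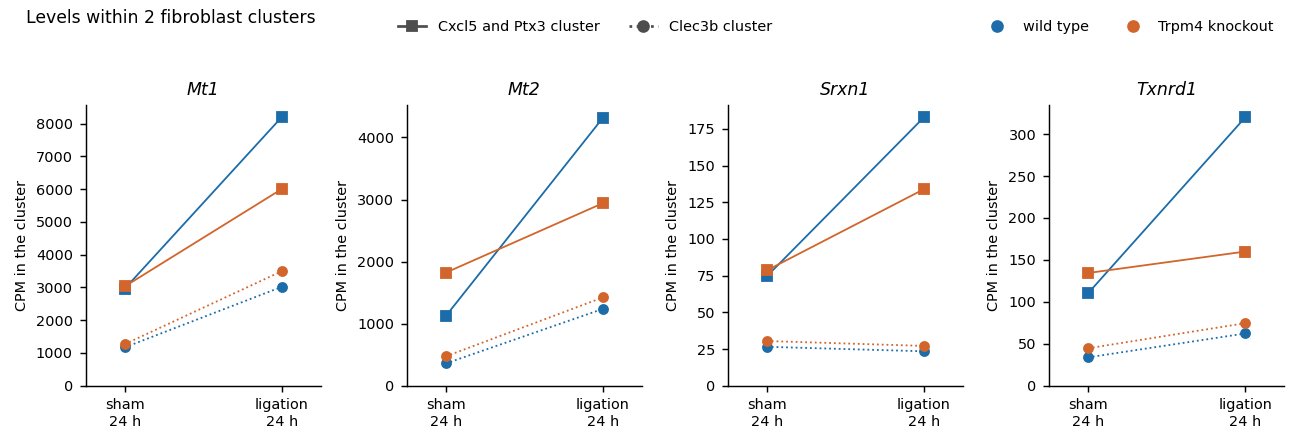
Level of Mt1, Mt2, Srxn1 and Txnrd1 (CPM in the cluster) at sham and at 24 h after ligation in 2 fibroblast clusters (squares, led by Cxcl5 and Ptx3; circles, led by Clec3b) and both genotypes. Mt1 and Mt2 are higher after ligation in both clusters, and Srxn1 in the Clec3b cluster lies at 26.5 and 30.4 CPM before and 23.4 and 27.1 CPM after.

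From 24 h to 72 h after ligation the fibroblast levels were lower again for the genes other than Prdx1 and the scarce Nqo1. Over the 4 classes, 13 of 30 pairs were at least 2-fold lower and 2 higher in wild type, against 9.47% and 12.5% of all pairs, and 12 of 30 were lower and 3 higher in knockout, against 6.16% and 13.2%. Fibroblasts held 7 of the 13 and 6 of the 12 lower pairs, where 15.7% and 8.34% of all measured genes were at least 2-fold lower; Txnrd1 in knockout was the gene short of 2-fold, at -0.77 (-1.03 to -0.52). Mt2 had a log2 ratio of -2.61 (-2.70 to -2.53) in wild type and -3.03 (-3.13 to -2.92) in knockout. Mt1 had -2.08 (-2.13 to -2.02) and -2.31 (-2.37 to -2.25), and Srxn1 -2.27 (-2.71 to -1.85) and -1.78 (-2.18 to -1.40). In the knockout fibroblasts at 72 h the 21 monocyte and macrophage markers summed to 5545 CPM, against 466 at 24 h, 798 in wild type at 72 h and 15767 in the macrophages of that library; their part in the 72 h values was not tested. These ratios share the 24 h ligation libraries with those against sham, so a high value at 24 h enters both. Outside fibroblasts the lower pairs at 72 h in wild type were Mt2 and Slc7a11 in monocytes and macrophages (7.21% of all genes of the class), Mt2 and Srxn1 in endothelial cells (7.7%) and Gclm and Slc7a11 in neutrophils (6.88%). In knockout they were Mt1, Mt2 and Slc7a11 in monocytes and macrophages (2.96%) and Gclm, Mt2 and Srxn1 in neutrophils (5.51%). Mt2 in knockout neutrophils, with 3 UMIs at 72 h against 92, and in wild-type endothelial cells, with 5 against 90, was compared only because of the 24 h library. The same holds in knockout neutrophils for Srxn1, with 4 UMIs at 72 h against 157, and Gclm, with 43 against 1323, and in knockout fibroblasts for Slc7a11, with 38 against 135.

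The fibroblasts compared were not the same clusters. At 24 h after ligation the Clec3b and the Cxcl5 and Ptx3 clusters held most of them; at 72 h a cluster led by Cthrc1, Col1a1 and Postn held 63.0% of the wild-type and 66.5% of the knockout cells. In this Cthrc1 cluster Mt1 was at 1191 CPM in wild type and 1090 in knockout at 72 h, Mt2 at 409 and 378, and Txnrd1 at 91.7 and 93.2. Without the clusters drawn mostly from 1 library no fibroblast value was left at 72 h.

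In monocytes and macrophages Slc7a11 was at least 2-fold higher at 24 h in both genotypes, and Mt1 in knockout only, a difference that was not tested. It was at 32.3 and 22.8 CPM in the wild-type and knockout sham libraries, 105 and 62.5 at 24 h after ligation, and 15.4 and 28.8 at 72 h. The 24 h libraries were the 2 highest, with log2 ratios of 1.70 (1.53 to 1.88) in wild type and 1.46 (1.24 to 1.68) in knockout, and the ratios from 24 h to 72 h were -2.77 (-2.94 to -2.60) and -1.12 (-1.31 to -0.93). Among all genes of this class, 2.55% in wild type and 1.69% in knockout were at least 2-fold higher at 24 h. Neutrophil markers in the same sums went from 529 and 584 CPM at sham to 2499 and 3367 at 24 h and 227 and 1830 at 72 h; their part in the Slc7a11 values was not tested. Slc7a11 was also higher within macrophages led by Mgl2, Cbr2 and Cd163, from 6.04 and 4.90 CPM at sham to 59.1 and 33.7 CPM.

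Mt1 in monocytes and macrophages was at 1071 and 1113 CPM at sham, 1508 and 2260 at 24 h after ligation, and 874 and 904 at 72 h. Its 24 h log2 ratio was 0.49 (0.46 to 0.53) in wild type and 1.02 (0.99 to 1.05) in knockout. Mt2 was at 115 and 144 CPM at sham, 186 and 188 at 24 h, and 48.1 and 49.7 at 72 h, so that the 24 h to 72 h ratio, -1.95 (-2.06 to -1.85) and -1.92 (-2.05 to -1.78), was larger than the ratio against sham, 0.69 (0.59 to 0.80) and 0.38 (0.29 to 0.48). Within macrophage clusters, Mt1 in cells led by Ccl24, Arg1 and Ccl9 was at 1344 and 1446 CPM at sham and 1848 and 3051 at 24 h, and in cells led by Mgl2, Cbr2 and Cd163 at 972 and 1071 at sham and 2247 and 2580 at 24 h. The order of these clusters thus differed between libraries. Cells led by Ear2, Adgre4 and Cd300e, 141 over all libraries, held 30 UMIs of Mt1 and 0 of Mt2, which allows up to 5.06 CPM (3 counts over the cluster).

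Prdx1 in monocytes and macrophages was at 798 and 849 CPM at sham, 830 and 1132 at 24 h, and 1762 and 1278 at 72 h. From 24 h to 72 h its log2 ratio was 1.09 (1.05 to 1.12) in wild type, where 12.1% of all genes of the class were at least 2-fold higher, and 0.18 (0.14 to 0.21) in knockout. Sod2 ran the other way, at 264 and 254 CPM at sham, 246 and 232 at 24 h, and 165 and 142 at 72 h, short of 2-fold in each step. Gclm, Srxn1 and Txnrd1 had log2 ratios of between -0.01 and 0.87 at 24 h against sham. Most of the 72 h cells were in other clusters than the sham and 24 h cells, led by Syngr1 and Gpnmb in wild type (33.3%) and by Ms4a7 and Lgmn in knockout (41.4%).

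**Figure D4:**
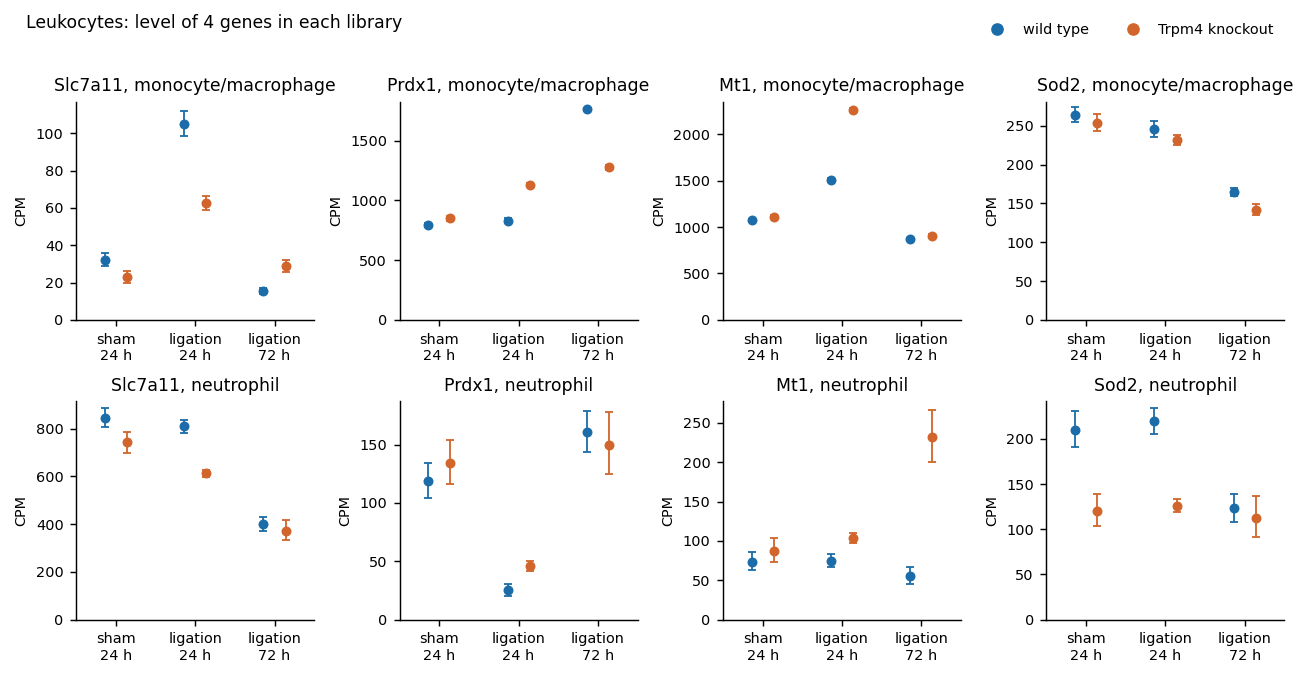
Level in CPM of Slc7a11, Prdx1, Mt1 and Sod2 in monocytes and macrophages (upper row) and in neutrophils (lower row) of each library (blue, wild type; orange, Trpm4 knockout); bars are 95% Poisson intervals. Slc7a11 peaks at 24 h after ligation in monocytes and macrophages (105 and 62.5 CPM), and Prdx1 in neutrophils is lowest at 24 h (25.2 and 45.6 CPM).

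Neutrophils had high Slc7a11 from the start. It was at 847 and 743 CPM in the wild-type and knockout sham libraries, 810 and 613 at 24 h after ligation, and 400 and 373 at 72 h. Its log2 ratio against sham was -0.06 (-0.15 to 0.02) in wild type and -0.28 (-0.37 to -0.18) in knockout, and that from 24 h to 72 h was -1.02 (-1.13 to -0.91) and -0.71 (-0.88 to -0.55). The share of neutrophils with a UMI of Slc7a11 was 56.4% and 54.6% at sham and 31.9% and 34.3% at 72 h, and 0.480% and 0.297% in endothelial cells of the sham libraries, at median depths of 2261.5 and 2163 UMIs in neutrophils and 3266.5 and 3370 in endothelial cells of these libraries. Gclm was at 148 and 160 CPM at sham, 109 and 139 at 24 h, and 54.3 and 50.3 at 72 h. Txnrd1 was at 195 and 183 CPM at sham, 135 and 107 at 24 h, and 84.6 and 92.5 at 72 h. All 3 genes of glutathione and thioredoxin supply were thus lower in both 72 h libraries than in both sham libraries.

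Prdx1 in neutrophils was lowest at 24 h. It was at 119 and 134 CPM at sham, 25.2 and 45.6 at 24 h after ligation, and 161 and 150 at 72 h. The 24 h libraries were the 2 lowest, with log2 ratios of -2.24 (-2.58 to -1.90) and -1.56 (-1.80 to -1.31) against sham, where 8.29% and 3.73% of all neutrophil genes were at least 2-fold lower, and 2.67 (2.35 to 3.01) and 1.72 (1.42 to 2.0) from 24 h to 72 h. In the last step 32.3% of all neutrophil genes in wild type and 29.3% in knockout were at least 2-fold higher, and the median log2 ratio of all genes was 0.54 and 0.51, so the larger part of the Prdx1 ratio remained relative to that median. Neutrophil clusters differed in makeup: at sham and 72 h a cluster led by Siglecf, Tnf and Ccrl2 was the largest, and at 24 h those led by Cish and by Retnlg. Srxn1 was the other gene at least 2-fold lower at 24 h, in wild type only, at 37.7 CPM at sham and 13.4 at 24 h (-1.49, -2.01 to -0.98), against 17.0 and 16.5 in knockout (-0.04, -0.64 to 0.62); the difference between the genotypes was not tested. Within the Siglecf cluster Prdx1 was at 193 and 243 CPM at sham, 74.1 and 118 at 24 h, and 204 and 178 at 72 h.

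**Figure D5:**
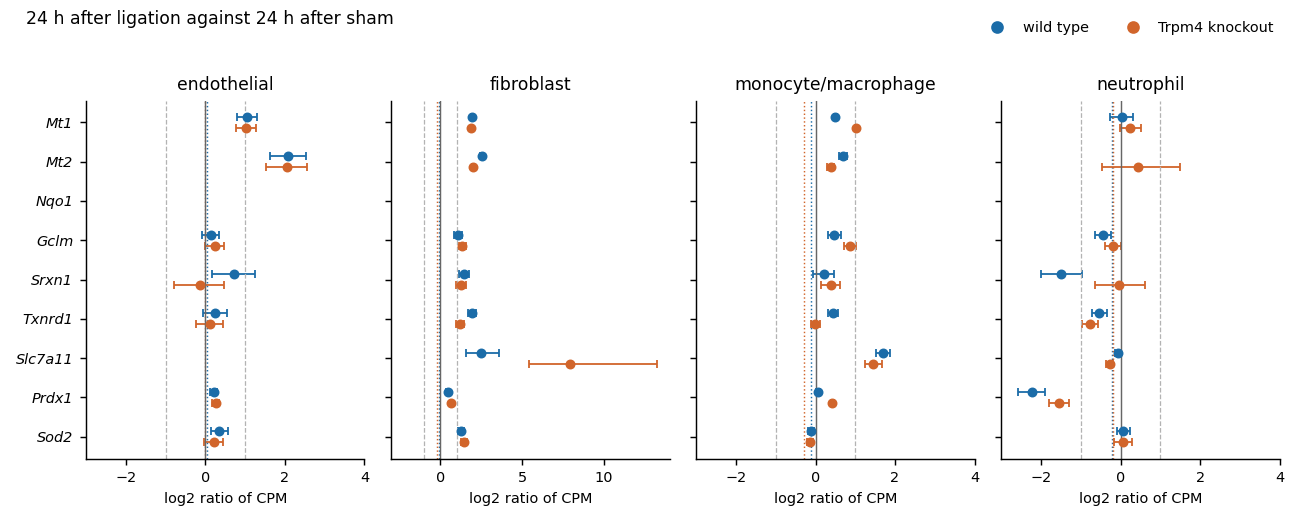
Log2 ratio of CPM at 24 h after ligation against 24 h after sham for each gene with at least 50 UMIs, in 4 classes, for wild type (blue) and Trpm4 knockout (orange); bars are 95% intervals from counting, dashed lines mark 2-fold, dotted lines the median of all measured genes, and the fibroblast axis is wider. In fibroblasts 7 genes lie at or beyond 2-fold higher in both genotypes, and in neutrophils Prdx1 lies at -2.24 and -1.56.

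Endothelial cells had the lowest metallothionein levels of the 3 classes that were not neutrophils, and these were higher at 24 h after ligation. Mt1 was at 42.3 and 45.0 CPM at sham, 88.1 and 91.7 at 24 h, and 66.5 and 275 at 72 h. Mt2 was at 8.70 and 7.14 CPM at sham, 36.7 and 29.5 at 24 h, and 6.93 and 31.4 at 72 h. The 24 h log2 ratios were 1.06 (0.81 to 1.30) and 1.03 (0.77 to 1.28) for Mt1 and 2.08 (1.62 to 2.54) and 2.05 (1.53 to 2.55) for Mt2, where 1.74% and 2.02% of all genes were at least 2-fold higher. These were the 2 genes of 7 compared that reached 2-fold in endothelial cells. A cluster of 500 cells led by Apln and Pgf, with 11 endothelial markers detected, stayed unnamed and is not in these sums. Counting it as endothelial took the wild-type cells from 2292 to 2350 at sham and from 588 to 734 at 24 h. At 72 h they went from 185 to 254. Prdx1, at 430.5 to 910 CPM, Gclm, Txnrd1 and Sod2 did not reach 2-fold at 24 h. The Srxn1 ratio from 24 h to 72 h in wild type, -1.17 (-2.69 to 0.06), rested on 6 UMIs at 72 h and changed sign under 4 other settings. All 4 held more wild-type endothelial cells, 706 to 744 at 24 h and 234 to 266 at 72 h, so they are not 4 separate checks.

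Smaller classes, with few cells a library, differed among themselves. In pericytes Mt1 was at 763 and 399 CPM at sham (84 cells each), 5472 and 2764 at 24 h after ligation (51 and 86 cells), and 804 and 784 at 72 h. In the cardiomyocyte class Mt1 was at 2803 and 3829 CPM at sham, 7406 and 7727 at 24 h, and 1614 and 1328 at 72 h. These values rested on 31 and 52 cells at sham, 13 and 66 at 24 h, and 56 and 187 at 72 h. Both classes thus had their 2 highest Mt1 values at 24 h after ligation, as fibroblasts had. In lymphatic endothelial cells Mt1 was at 328 and 155 CPM at sham, 975 and 319 at 24 h, and 54.5 and 538 at 72 h, so that the knockout value at 24 h was below wild-type sham. In mesothelial cells the knockout library at 24 h held only 2 cells and 3 UMIs of Mt1. Mt1 outnumbered Mt2 to different degrees: there were 2.05 to 3.51 Mt1 UMIs per Mt2 UMI in fibroblasts, 7.73 to 18.2 in monocytes and macrophages and 2.40 to 9.60 in endothelial cells, counted at the 3' end and not scaled by length. In lymphatic endothelial cells at 24 h the ratio was 1.01 (0.837 to 1.23) in wild type and 0.816 (0.524 to 1.27) in knockout, while in the knockout library at 72 h it was 42.8 (18.1 to 133), from 214 and 5 UMIs.

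Knockout and wild type were close for most pairs of gene and class. At sham 0 of 30 pairs were at least 2-fold higher in knockout and 1 was lower, against 1.16% and 0.629% of all pairs. That pair was Srxn1 in neutrophils, at 17.0 CPM in knockout and 37.7 in wild type (log2 ratio -1.15, -1.85 to -0.49), where 0.374% of all neutrophil genes were that much lower. It reached the 50-UMI minimum only through the wild-type library. At 24 h after ligation 1 of 31 pairs was higher and 0 lower, against 0.956% and 1.62%. It was Slc7a11 in fibroblasts, at 54.7 CPM in knockout and 17.1 in wild type (log2 ratio 1.68, 1.18 to 2.21), where 0.607% of all fibroblast genes were that much higher, with neutrophil markers at 1382 and 793 CPM in these sums; the part of that RNA was not tested. This pair held 135 UMIs in knockout and 44 in wild type, so it reached the 50-UMI minimum only through the knockout library. Within the Cxcl5 and Ptx3 cluster the Slc7a11 ratio was 1.30 (0.77 to 1.86), and without that cluster fewer than 50 UMIs were left.

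Sod2 in neutrophils was lower in knockout at sham and at 24 h after ligation, short of 2-fold. It was at 210 CPM in wild type and 120 in knockout at sham, 220 and 126 at 24 h, and 123 and 112 at 72 h, so that the 2 wild-type libraries of the first 2 conditions stood above the other 4. The log2 ratio of knockout to wild type was -0.80 (-1.06 to -0.55), -0.80 (-0.93 to -0.68) and -0.13 (-0.49 to 0.21). Cluster makeup differed between the genotypes at 24 h: the cluster led by Retnlg, with 113 CPM of Sod2 in wild type and 56.6 in knockout, was 48.2% of knockout and 28.1% of wild-type neutrophils, and that led by Cish, with 266 and 245 CPM, was 23.2% and 49.1%. Within these clusters the 24 h ratio was -0.99 (-1.30 to -0.68) for the Retnlg and -0.12 (-0.29 to 0.05) for the Cish cluster. At sham, within the Siglecf cluster, it was -0.93 (-1.25 to -0.62).

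At 72 h after ligation 2 of 26 pairs were at least 2-fold higher in knockout and 1 was lower, against 4.85% and 1.97% of all pairs. Mt1 was higher in endothelial cells, 275 against 66.5 CPM (log2 ratio 2.05, 1.60 to 2.52), and in neutrophils, 232 against 55.2 CPM (2.07, 1.73 to 2.42); 5.68% of all endothelial and 0.675% of all neutrophil genes were that much higher. Gclm was lower in endothelial cells, 58.8 against 126 CPM (-1.10, -1.60 to -0.62), where 3.9% of all genes were that much lower. In the knockout hearts Mt1 was also higher at 72 h than at 24 h, with log2 ratios of 1.59 (1.30 to 1.87) in endothelial cells, where 6.3% of all genes were at least 2-fold higher, and 1.17 (0.94 to 1.39) in neutrophils, where 29.3% were; relative to the all-gene median of 0.51 in that step the neutrophil value was 0.65, under 2-fold. The endothelial sums of both 72 h libraries held RNA of other cells: the monocyte and macrophage markers summed to 3688 CPM in knockout and 1588 in wild type, the neutrophil markers to 5086 and 279, and the erythroid markers to 15168 and 66104, and 70.0% of its endothelial cells were in a cluster led by Rflnb and Rhoc that held 17.8% in wild type. In neutrophils the monocyte and macrophage markers summed to 1068 CPM in knockout and 715 in wild type. The part of these values and of the shallow depth in the ratios was not tested. With cells under 1500 UMIs left out, the 3 ratios between the genotypes were 1.88, 2.12 and -1.03.

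Most other genes of the NRF2 pathway stayed within 2-fold in fibroblasts. Of 29 further NRF2 targets, 27 could be compared in wild type and 26 in knockout at 24 h against sham, with 3 at least 2-fold higher in each and 1 and 2 at least 2-fold lower, where 4.96% and 4.18% of all fibroblast genes were that much higher and 4.43% and 9.78% that much lower; the medians were -0.06 and -0.03. Hmox1, the heme oxygenase, was the highest of them, at 23.7 and 28.7 CPM at sham and 231 and 435 at 24 h, with log2 ratios of 3.28 (2.97 to 3.61) and 3.92 (3.66 to 4.20). Ephx1, the microsomal epoxide hydrolase, was lowest, with ratios of -1.61 (-1.96 to -1.28) and -1.15 (-1.48 to -0.82). Of the 9 genes for NRF2 and its regulators, 1 was at least 2-fold higher in each genotype, the small MAF gene Maff, with 2.48 (2.0 to 2.98) and 1.99 (1.59 to 2.40). Keap1 had -0.17 (-0.57 to 0.23) and -0.48 (-0.89 to -0.08).

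Lists of genes induced by other signals were counted in the same fibroblasts, where 4.96% of all genes in wild type and 4.18% in knockout were at least 2-fold higher, 4.43% and 9.78% lower, and the medians were -0.06 and -0.21. Of ATF4 targets, the amino acid stress response that also includes the Slc7a11 partner Slc3a2, 8 of 13 were at least 2-fold higher in wild type and 10 of 14 in knockout, with medians of 1.32 and 1.40. Of hypoxia-induced genes 8 of 14 and 7 of 12 were, with medians of 1.24 and 1.15. Of NF-kB targets 4 of 13 were in each genotype (medians 0.62 and 0.59), led by Cxcl2 with 5.14 (4.74 to 5.56) in wild type. Glucocorticoid-induced genes had medians of -0.17 and -0.19, with 2 of 11 and 1 of 11 higher and 1 and 2 lower. In the metal handling list Mt3, another metallothionein gene, was the single gene at 2-fold in each genotype, from 1 UMI at sham in wild type (6.31, 3.77 to 11.64) and 1.67 (0.84 to 2.54) in knockout. Dissociation-responsive genes, which enzymatic digestion can induce, had medians of 0.99 and 0.36 with 8 of 17 and 1 of 16 at 2-fold; their part in the values of the 9 genes was not tested.

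Of 20 other peroxide, superoxide and thiol enzymes 19 could be compared in fibroblasts at 24 h, and 2 were at least 2-fold higher in each genotype, 0 in wild type and 2 in knockout were lower, and the medians were 0.13 and 0.24. Of all fibroblast genes, 4.96% in wild type and 4.18% in knockout were that much higher, and 4.43% and 9.78% that much lower. The 2 of 19 lower in knockout lie near that 9.78%. The 2 genes higher in each genotype were Slc3a2, the heavy chain that Slc7a11 needs, and the glutaredoxin gene Glrx. Slc3a2 had log2 ratios of 1.32 (1.07 to 1.56) and 1.56 (1.35 to 1.78), and Glrx 1.15 (0.65 to 1.65) and 1.56 (1.11 to 2.03). Txnip, which binds and inhibits thioredoxin, was the lowest, with -0.68 (-0.82 to -0.55) and -1.16 (-1.32 to -0.99).

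Across 35 sums of 1 class in 1 library with at least 100 cells, and among 4452 genes, the pattern of each of the 9 genes was set beside the others by Pearson correlation of log2(CPM + 10). These sums share libraries, depth and the large differences between classes. Mt1 and Mt2 had r = 0.87 with each other, Slc7a11 and Txnrd1 0.71, Srxn1 and Gclm 0.66 and Prdx1 and Slc7a11 -0.61. The gene most like Mt2 was Timp1 (r = 0.90), that most like Mt1 was Lrp1 (0.90), that most like Slc7a11 was Cd33 (0.96), that most like Prdx1 was Nme2 (0.94), and that most like Nqo1 was Reln (0.80). Reln was among the lymphatic endothelial markers, and that class entered these sums only through the shallow knockout library at 72 h, with 149 cells. Gclm was most like Map2k3 (0.84), Txnrd1 like Wsb1 (0.83), Sod2 like Kmt5a (0.78) and Srxn1 like Esd (0.77).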

How the data were processed

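The 9 genes, the gene lists and the cell type markers were chosen with earlier results of these data known. The deposited values are raw UMI counts for every gene in every cell; the submitters' processing notes name Cell Ranger 6.0.0 and mm10. Any later filter is not given in the sources used here; no cell in the files was under 500 UMIs. Cells with under 200 genes or over 20% mitochondrial UMIs were left out. Scrublet (scanpy 1.11.5) scored doublets in each library, and the top scores were removed at 0.8% per 1000 deposited cells, because its automatic threshold marked 0 to 50 cells a library. The 2000 most variable genes, without the 9 genes, the listed genes, Trpm4, Xist and mitochondrial, ribosomal and hemoglobin genes, gave 30 components, 20 neighbours and 38 Leiden clusters at resolution 1, with no correction between libraries; 6 clusters stayed unnamed. Classes were rebuilt from markers and may differ from the authors' own.

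UMIs were summed per class and library. Log2 ratios carry 95% exact conditional intervals of 2 Poisson counts, checked on simulated data; shares of cells are exact binomial. With 1 library a group no test was made. Named genes are the 9, at most the 2 highest and 2 lowest of each list, and the most similar genes. Depth was 20995280 to 45649061 UMIs a library.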

Additional observations from a re-analysis of the deposited data

Results flagged for a closer look

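In 4 cases the effect of the same contrast had opposite signs in 2 settings. Cases were listed where the counting intervals lay on opposite sides of 0 and the ratios were at least 2-fold apart. Smaller sign changes were left out. With 1 library a group the differences were not tested. Gclm in endothelial cells was higher from 24 h to 72 h after ligation in wild type (log2 ratio 0.45) and lower in knockout (-0.73), a difference of -1.19. Mt1 in neutrophils was lower in wild type (-0.44) and higher in knockout (1.17) over the same step, a difference of 1.61. Slc7a11 in monocytes and macrophages was lower in knockout than in wild type at 24 h after ligation (-0.75) and higher at 72 h (0.90), a difference of 1.65. Set against sham, where the knockout to wild-type ratio was -0.50, the difference at 72 h was 1.40. All 4 rest on the shallow knockout library at 72 h. In the monocytes and macrophages of that library the neutrophil markers summed to 1830 CPM, against 227 in the wild-type library; their part in the Slc7a11 difference was not tested.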

How the results depend on the processing

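No paired analysis was possible because each group is 1 library, so that the groups compared share only 1 replicate number; fits over the 3 conditions matched between the genotypes were not run. Of 59 gene and class pairs at least 2-fold apart, between 54 and 58 stayed so under the planned settings that kept nearly all pairs and could change a ratio. A minimum of 20 UMIs changes no ratio of a pair already compared, so all 59 stayed by construction. Without clusters drawn mostly from 1 library 46 of the 46 with a value stayed. The endothelial and neutrophil cells were the same in that setting, so their pairs could not change. Without the Cxcl5 and Ptx3 fibroblast cluster, a setting chosen after seeing the data, 39 of 54 stayed. There Srxn1 in fibroblasts turned to -0.15 (wild type) and -0.12 (knockout) at 24 h against sham, and Txnrd1 in wild type to 0.43 from 24 h to 72 h. Pairs higher at 24 h went from 10 to 5 and from 11 to 6, pairs lower from 24 h to 72 h in wild type from 13 to 8, and pairs higher in knockout at 24 h from 1 to 0. Srxn1 in wild-type endothelial cells from 24 h to 72 h, at -1.17, turned to 0.22 at resolution 0.5, 0.31 at resolution 2, 0.17 with no doublet removal, and 0.22 with a cluster led by Apln and Pgf counted as endothelial, also chosen after seeing the data; the cause was not tested. Resolution 0.5 and the Apln and Pgf setting held the same numbers of wild-type endothelial cells, 734 at 24 h and 254 at 72 h. Without the clusters mostly from 1 library the pairs lower from 24 h to 72 h went from 13 to 6 in wild type and from 12 to 6 in knockout, because no fibroblast value was left. With the mean over cells, pairs higher from 24 h to 72 h in wild type went from 2 to 1, and pairs lower in knockout from 1 to 0 at sham and from 1 to 0 at 72 h. With no doublet removal, pairs lower in knockout at sham went from 1 to 2 and pairs higher at 24 h from 1 to 2. At resolution 2, pairs lower in knockout at 24 h went from 0 to 1. With a minimum of 20 UMIs, pairs lower in knockout at sham went from 1 to 2, and at 72 h pairs higher went from 2 to 5 and lower from 1 to 2. A lower minimum lets in more pairs with few UMIs. The share of all genes called under each altered setting is not given beside these counts, so they show only how the counts moved. Setting the median gene ratio to 1 moved ratios by up to the all-gene median, which was 0.54 and 0.51 from 24 h to 72 h in neutrophils and between -0.28 and 0.14 in the other classes. Thinning cells to 1000 UMIs lowered shares of cells with a UMI most where cells were deep, so such shares follow depth. Counting error limits Nqo1 in the 4 main classes and Slc7a11 in fibroblasts and endothelial cells.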
